A study of Mus musculus with 28 samples.

Results

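The 10 genes described here are the glucocorticoid receptor, Nr3c1, and 9 genes that corticosterone is known to act on: Fkbp5, Tsc22d3, Zbtb16, Sgk1, Klf9, Errfi1, Cebpd, Mt1 and Mt2. They were found by gene name among the 45513 rows of a table of raw gene counts from mouse ventricular myocardium. All 10 were among the 24273 genes that passed the filter on low counts. The mice were male C57BL/6. Surgery at 6 weeks of age was either a sham operation or removal of most kidney tissue in 2 stages (5/6 nephrectomy), a model of chronic kidney disease (CKD). On day 7 the mice were gavaged with the oxalate-degrading gut bacterium Oxalobacter formigenes (Oxf) or with its vehicle, culture medium. All of them ate a diet with 1% hydroxyproline and 0.5% calcium, so no group was on plain chow, and hearts were taken after ketamine/xylazine anesthesia and perfusion. The groups are sham-vehicle (10 mice, numbered 901 to 910), CKD-vehicle (6 mice, 913 to 920), sham-Oxf (5 mice, 921 to 929) and CKD-Oxf (7 mice, 931 to 940). The design describes 10 mice in each group, and the others were not analysed here. Each mouse gave 1 library, so p-values measure the spread between mice. No hormone level was used, and what the order of the mouse numbers stands for is not stated.

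Corticosterone, the main glucocorticoid of the mouse, enters cells and binds the receptor encoded by Nr3c1, which heat shock proteins hold in the cytoplasm. The bound receptor moves to the nucleus and switches genes on or off, many of them through a palindromic glucocorticoid response element. Secretion follows the daily rhythm and rises with stress, so these genes are also known to vary with time of day and handling. In the heart the receptor is active in cardiomyocytes as well as in vascular and immune cells.

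Promoter windows of the genes show where a receptor element or a metal element is written close to a start site. RefSeq windows (mouse build GRCm38.p6) of 300 bases, from 250 before the start site to 50 from it on, were found for 7 of the 10 genes, 15 windows in all. Nr3c1, Zbtb16 and Cebpd had none. The full palindrome, the half-site AGAACA, any 3 bases and TGTTCT, was searched on both strands. It occurs in 3 of 32851 windows of all genes (0.00913%). Of these, 1 belongs to Sgk1. The match lies at -189 to -175 with the start site counted as 0. The window also holds the clock factor E-box CACGTG at -246 to -241, which does not overlap it. That hexamer is in 7.15% of all windows and, beside Sgk1, in 1 Fkbp5 window. The clock output D-box (TTATGTAA, TTACGTAA or TTACATAA, both strands) is in 1.06% of all windows and in none of the 15. The metallothionein windows are shown because Mt1 and Mt2 correlated over the 28 libraries (r 0.82), though only at 0.15 within sham-vehicle. Their capitals mark the core of the metal response element, TGCGCNC or TGCACNC on either strand, found in 25.7% of all windows. Mt1 held 3 matches and Mt2 held 4, and 1 further Sgk1 window, not shown, held 1. A match describes letters in a window and is not a measured binding site. Each sequence runs from 250 bases before the start site to 30 bases from it on, on the plus strand (Sgk1 chr10:21993640-21993919, Mt1 chr8:94178839-94179118, Mt2 chr8:94172368-94172647), with the element in capitals.
Sgk1: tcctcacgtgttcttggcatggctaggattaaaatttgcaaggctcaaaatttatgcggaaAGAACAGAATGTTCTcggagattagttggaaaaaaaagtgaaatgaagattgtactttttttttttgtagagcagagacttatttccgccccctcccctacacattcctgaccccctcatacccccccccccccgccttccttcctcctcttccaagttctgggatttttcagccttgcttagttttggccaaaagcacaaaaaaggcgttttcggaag
Mt1: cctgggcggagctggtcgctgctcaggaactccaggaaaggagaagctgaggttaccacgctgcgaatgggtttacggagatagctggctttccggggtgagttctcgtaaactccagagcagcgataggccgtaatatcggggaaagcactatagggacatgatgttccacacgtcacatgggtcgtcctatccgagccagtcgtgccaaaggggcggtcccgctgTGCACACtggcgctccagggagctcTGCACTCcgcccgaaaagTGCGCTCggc
Mt2: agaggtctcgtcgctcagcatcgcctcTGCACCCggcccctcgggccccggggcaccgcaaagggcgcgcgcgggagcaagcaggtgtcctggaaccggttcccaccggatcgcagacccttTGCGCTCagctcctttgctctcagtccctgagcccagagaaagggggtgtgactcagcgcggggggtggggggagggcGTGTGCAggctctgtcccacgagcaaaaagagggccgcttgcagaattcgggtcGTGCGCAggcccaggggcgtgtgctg

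Total counts ran from 19798965 (mouse 921) to 65378162 (mouse 914). The 8 ventricular cardiomyocyte markers had counts in all 28 libraries (Myh6, the main cardiac myosin of the adult mouse, at 11277 to 29646 counts per 1000000 counts, CPM). In a bulk sample, fewer cells of a type and less RNA per cell cannot be told apart. Mouse 921, of sham-Oxf, listed 15879 genes with a count, against 27128 or more elsewhere. The share of counts from the 7SL RNA copies Rn7s1 and Rn7s2 varied from 1.83% to 20.98%. A clock score, the mean of 8 genes around Dbp minus that of 5 around Arntl, ran from -2.66 to -0.23 in CKD-vehicle and from 0.031 to 1.65 in CKD-Oxf, so these groups did not overlap in it, and clock gene state and gavage cannot be told apart in the CKD mice. The sham mice spanned -1.41 to 1.75 with vehicle and 0.76 to 1.99 with Oxf.

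No glucocorticoid response gene passed an adjusted p of 0.05 in any of the 12 tests, the 7 group contrasts and the 5 slopes on mouse number (edgeR quasi-likelihood test, Benjamini-Hochberg adjustment over 24273 genes). DESeq2 called none either. Limma voom with sample weights called 1 to 3 of them in 4 of the 12 tests, which called 947 to 8392 of all genes. The levels of each gene overlapped between the groups of all 4 pairwise contrasts (40 of 40 gene and contrast pairs). Ordering the 4 groups by mean log2 CPM gave 30 pairs of neighbours over the 10 genes, and in all 30 the gap was smaller than the larger of the 2 SDs. Neither count was set beside its share over all genes, so both only describe these 10 genes. What stood out was the spread between mice of the same group.

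**Figure D1:**
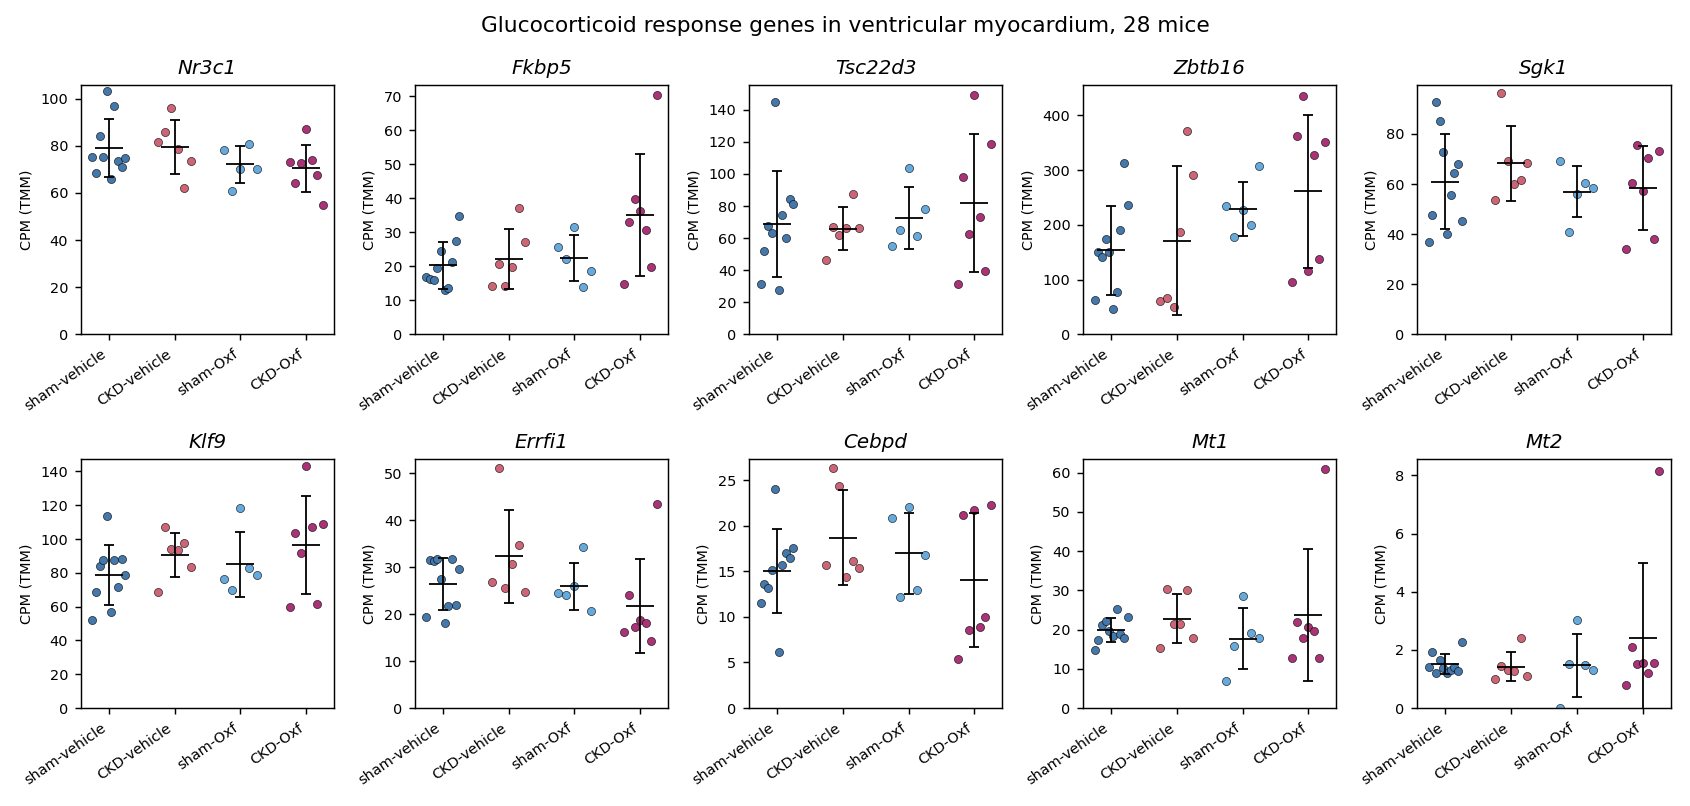
Level of each of the 10 genes in each mouse (CPM after TMM scaling, linear axis from 0), by group. Points are mice, long bars the group mean and whiskers the SD (the lower Mt2 whisker of CKD-Oxf runs below 0 and is cut by the axis). The groups overlap for every gene, and mouse 940 of CKD-Oxf is the highest point for Fkbp5 (70.5 CPM), Mt1 (60.9) and Mt2 (8.16).

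Nr3c1 (ENSMUSG00000024431, chromosome 18) was the least variable of the set. Its level ran from 66.05 to 103.5 CPM with a median of 74.98 in sham-vehicle. It ran from 62.2 to 96.0 with a median of 80.1 in CKD-vehicle. The 5 sham-Oxf mice had 78.4, 60.9, 70.3, 80.7 and 70.3 CPM. CKD-Oxf ran from 55.1 to 87.3 with a median of 72.8. The ranges overlapped, and the means were 78.9 ± 12.3 (SD, n = 10) and 79.6 ± 11.5 CPM (n = 6) with vehicle and 72.1 ± 7.85 (n = 5) and 70.6 ± 9.95 CPM (n = 7) with Oxf, sham before CKD. Its within-group SD, 0.20 on the log2 scale, sat at percentile 24.6 of the 1119 genes of like level. The targets sat higher, from 65.7 for Klf9 to 96.2 for Tsc22d3 and 96.5 for Zbtb16. Within groups Nr3c1 followed the 7SL share (Pearson r 0.75 with its log2, Spearman rho 0.70, 28 libraries, all of which share the library's composition) and the cardiomyocyte marker score (r 0.70). The part of library composition in these levels was not tested.

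Of 18 other genes of the receptor's machinery, all tested, edgeR called only Hsp90aa1, and only for Oxf against vehicle averaged over surgery. In that contrast DESeq2 called 4 of the 18 (Hsp90aa1, Hsp90ab1, Ptges3 and Stip1) and limma voom 10, beside 2133 and 5336 of all genes. Hsp90aa1 encodes the inducible cytosolic Hsp90, the chaperone that keeps the receptor ready to bind hormone. Its level ran from 34.95 to 234 CPM (median 79.5) in sham-vehicle and from 55.7 to 98.2 (median 77.6) in CKD-vehicle. It ran from 45.03 to 58.5 (median 52.6) in sham-Oxf and from 34.3 to 72.7 (median 43.7) in CKD-Oxf. The medians of both Oxf groups were below the lowest CKD-vehicle mouse, while sham-vehicle overlapped with all groups. Hsp90aa1 fell by 0.79 ± 0.20 (SE) on the log2 scale (edgeR adjusted p = 0.0351), in a contrast that called 2.81% of all genes. With the clock score as a covariate the difference was -0.46 ± 0.32 (edgeR adjusted p = 0.855), in a fit that called 0 of all genes in this contrast. With the log2 7SL share it was -0.45 ± 0.19 (adjusted p = 0.23), where 132 of all genes were called. With no filter on low counts it was -0.82 ± 0.21 (edgeR adjusted p = 0.0661). The call was also lost in 12 of 28 fits that left out 1 library (without mouse 904, 907, 913, 914, 916, 923, 927, 929, 932, 933, 935 or 936), with adjusted p from 0.051 to 0.0716. In the other 11 tests neither edgeR nor DESeq2 called any of the 18. Limma voom called 6 in CKD-Oxf minus CKD-vehicle and 9 for the slope in CKD-vehicle, beside 3640 and 8392 of all 24273 genes. With edgeR, 4 had an unadjusted p below 0.05 in CKD-Oxf minus CKD-vehicle, beside 13.1% of all genes. There were 2 in sham-Oxf minus sham-vehicle (12.6% of all genes), 1 for the slope in sham-Oxf (19.9%) and 0 in the rest of these 11 tests. The smallest p belonged to Nr3c2, the mineralocorticoid receptor, in CKD minus sham (-0.16 ± 0.13, edgeR adjusted p = 0.671), and to Ncoa1, a coactivator, in CKD-vehicle minus sham-vehicle (0.17 ± 0.12, adjusted p = 0.955). In the pairwise Oxf contrasts it was Hsp90aa1 again (-0.75 ± 0.28, adjusted p = 0.276 in CKD and -0.84 ± 0.28, adjusted p = 0.235 in sham). For the interaction and for CKD-Oxf minus sham-Oxf it was Ncor1, a corepressor. For the slopes on mouse number it was H6pd, Nr3c2, Med1 or Ncoa2.

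Fkbp5 (ENSMUSG00000024222, GRCm38 chr17:28399094-28517527, minus strand) encodes an Hsp90 cochaperone that lowers the receptor's affinity for hormone and is itself induced by it. It ran from 13.04 to 34.9 CPM (median 18.2) in sham-vehicle and from 14.1 to 37.1 (median 20.2) in CKD-vehicle. The sham-Oxf mice had 25.6, 22.3, 31.5, 14.0 and 18.7 CPM. The CKD-Oxf mice had 14.9, 33.0, 40.0, 36.2, 30.8, 19.8 and 70.5 CPM, in the order of their numbers. Mouse 940 was the highest of all 28, and 5 of 7 CKD-Oxf mice were above the CKD-vehicle median. In the annotation 4 other genes overlap the Fkbp5 span, so some of its counts could be theirs.

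Tsc22d3 (ENSMUSG00000031431, chrX:140539528-140600659, minus strand) encodes GILZ, a leucine zipper protein that mediates anti-inflammatory effects of glucocorticoids. Its level ran from 27.5 to 145 CPM (median 65.4) in sham-vehicle and from 31.6 to 149 (median 73.04) in CKD-Oxf. In CKD-vehicle it kept to 46.4 to 87.8 CPM, and the sham-Oxf mice had 55.3, 64.9, 103.8, 61.2 and 78.3 CPM. The span over all mice was 5.44-fold, with mouse 906 lowest and mouse 934 highest, and group means lay between 65.9 ± 13.2 (n = 6) and 81.9 ± 42.8 CPM (n = 7).

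Zbtb16 (ENSMUSG00000066687, chr9:48654297-48836222, minus strand) encodes the zinc finger repressor PLZF, a strongly inducible receptor target. It spanned 47.1 to 435 CPM over the 28 mice, 9.25-fold. Sham-vehicle ran from 47.1 to 313 CPM (median 150) and CKD-Oxf from 95.9 to 435 (median 327). The CKD-vehicle mice had 61.2, 65.9, 50.2, 187, 371 and 291 CPM, in the order of their numbers. The sham-Oxf mice had 234, 177, 227, 200 and 307 CPM. CKD-vehicle thus fell into 3 low mice with the lower numbers and 3 high mice with the higher ones, while sham-Oxf was the least spread group.

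Sgk1 (ENSMUSG00000019970, chr10:21882184-21999903, plus strand), the gene with the palindrome shown above, encodes a kinase that acts on ion transport. The vehicle mice spanned 36.7 to 92.6 CPM (median 60.2) after sham surgery and 53.6 to 96.5 (median 65.1) with CKD, and the CKD-Oxf mice 34.2 to 75.5 (median 60.4). The sham-Oxf mice had 69.2, 41.0, 56.2, 60.4 and 58.2 CPM, inside the range of the other groups. Klf9 (ENSMUSG00000033863, chr19:23141226-23168134, plus strand) encodes a zinc finger factor under joint control of glucocorticoids and thyroid hormone. Its means rank CKD-Oxf (96.5 ± 29.1 CPM, n = 7), CKD-vehicle (90.7 ± 13.1, n = 6), sham-Oxf (85.2 ± 19.2, n = 5) and sham-vehicle (78.8 ± 17.7, n = 10). The whole range, 52.1 to 143 CPM, was nearly covered by CKD-Oxf alone (59.6 to 143).

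Errfi1 (ENSMUSG00000028967, chr4:150853919-150868892, plus strand) encodes MIG6, an inhibitor of epidermal growth factor receptor signalling. It ran from 18.1 to 31.8 CPM (median 28.6) in sham-vehicle and from 24.8 to 51.2 (median 28.8) in CKD-vehicle. The sham-Oxf mice had 24.5, 24.1, 25.9, 34.4 and 20.7 CPM. The CKD-Oxf mice had 16.2, 24.1, 17.3, 18.7, 18.1, 14.2 and 43.5 CPM. All CKD-Oxf mice but mouse 940 were therefore below the lowest CKD-vehicle mouse. Cebpd (ENSMUSG00000071637, chr16:15887286-15891031, plus strand) encodes a C/EBP transcription factor that responds to both glucocorticoids and cytokines. With vehicle, it ran from 6.19 to 24.0 CPM (median 15.4) in sham and from 14.3 to 26.3 (median 15.9) in CKD mice. The CKD-Oxf mice spanned 5.43 to 22.3 CPM (median 10.0), with 20.8, 12.2, 22.0, 12.96 and 16.8 CPM in sham-Oxf. Among the CKD-Oxf mice, 932, 934 and 940 had 21.2, 21.8 and 22.3 CPM, and the others 10.0 CPM or less.

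The metallothioneins Mt1 (ENSMUSG00000031765, chr8:94179082-94180327, plus strand) and Mt2 (ENSMUSG00000031762, chr8:94172664-94173568, plus strand) bind zinc and copper and respond to glucocorticoids, metals and oxidative stress. The genes lie 5513 bases apart. With vehicle, Mt1 ran from 14.7 to 25.3 CPM (median 19.2) in sham and from 15.4 to 30.4 (median 21.4) in CKD mice. The 7 CKD-Oxf mice spanned 12.7 to 60.9 CPM (median 19.6). The sham-Oxf mice had 6.92, 15.8, 28.6, 19.1 and 17.8 CPM. Both extremes over all 28 mice were single animals, 921 at the bottom and 940 at the top. With vehicle, Mt2 ran from 1.21 to 2.26 CPM (median 1.396) in sham and from 1.01 to 2.41 (median 1.29) in CKD mice, and the CKD-Oxf mice spanned 0.81 to 8.16 CPM (median 1.54). The sham-Oxf mice had 0, 1.53, 3.01, 1.49 and 1.30 CPM. Mouse 921 had no Mt2 count, which allows a level of up to 0.142 CPM (3 counts, counting error only), and the other libraries held 38 to 418 Mt2 counts. In the annotation, a gene on the other strand overlaps the span of Mt2 (Gm45774), Errfi1 (1700045H11Rik) and Cebpd (Spidr). Reads of such a pair cannot be told apart where they overlap, since the use of strand is not given in the sources used here.

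The effect of nephrectomy alone was read from CKD-vehicle minus sham-vehicle, where 0 of the 10 genes passed and 0.00824% of all genes did. At an unadjusted p of 0.05 the count was also 0, against 4.46% of all genes. The log2 differences lay between -0.08 and 0.31 with a median of 0.16 (all genes -0.035), and 8 of 10 were positive. Errfi1 had the smallest p (0.29 ± 0.20, edgeR adjusted p = 0.955), with only 3 of 6 CKD-vehicle mice above the sham-vehicle median. With Oxf in both groups, CKD-Oxf minus sham-Oxf gave 0 of 10 (0% of all genes) past the threshold. Fkbp5 alone had an unadjusted p below 0.05 (0.64 ± 0.31, p = 0.0444, edgeR adjusted p = 0.584), where 8.23% of all genes did. Without mouse 940 that difference was 0.38 ± 0.28 (adjusted p = 0.786). Averaged over gavage, CKD minus sham gave 0 of 10 (0% of all genes), and 0 at an unadjusted p of 0.05 (10.6% of all genes), with a median of 0.14 (all genes -0.00069) and Fkbp5 at the smallest p (0.39 ± 0.20, edgeR adjusted p = 0.503).

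The effect of Oxf in mice with CKD was read from CKD-Oxf minus CKD-vehicle. Again 0 of 10 genes passed, beside 0.033% of all genes. At an unadjusted p of 0.05 there were 2, in opposite directions, beside 13.1% of all genes. Fkbp5 was higher in CKD-Oxf by 0.66 ± 0.29 on the log2 scale (p = 0.0303, edgeR adjusted p = 0.334), and Errfi1 was lower, at -0.57 ± 0.22 (p = 0.0129, adjusted p = 0.288). The Fkbp5 difference was 0.39 ± 0.27 without mouse 940 (adjusted p = 0.556). With the clock score as a covariate it turned to -0.13 ± 0.37 (adjusted p = 1). The Errfi1 difference was -0.83 ± 0.18 without mouse 940 (p = 7.97e-05, adjusted p = 0.137) and -0.51 ± 0.33 with the clock score. Without mouse 914, the highest of CKD-vehicle, it was -0.39 ± 0.21. The other 8 genes ran from -0.42 for Cebpd to 0.76 for Mt2, and without mouse 940 the Mt2 difference was 0.028 ± 0.43.

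In sham mice, sham-Oxf minus sham-vehicle gave 0 of 10 (0% of all genes). None had an unadjusted p below 0.05, where 12.6% of all genes did. Zbtb16 had the smallest p (0.57 ± 0.43, edgeR adjusted p = 0.609), and all 5 sham-Oxf mice were above the sham-vehicle median. With the clock score as a covariate the Zbtb16 difference was -0.40 ± 0.43 (adjusted p = 0.813). Averaged over surgery, Oxf minus vehicle called 0 of 10, beside 2.81% of all genes, and 0 at an unadjusted p of 0.05, beside 23% of all genes. Fkbp5 came nearest (0.40 ± 0.20, p = 0.0555, edgeR adjusted p = 0.23), and with the clock score it was -0.22 ± 0.28. The interaction of surgery and gavage gave 0 of 10 (0% of all genes), and 0 at an unadjusted p of 0.05 (3.55% of all genes), with Errfi1 at the smallest p (-0.54 ± 0.30, edgeR adjusted p = 1). The contrasts share groups, so their values for 1 gene are not independent of each other.

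**Figure D2:**
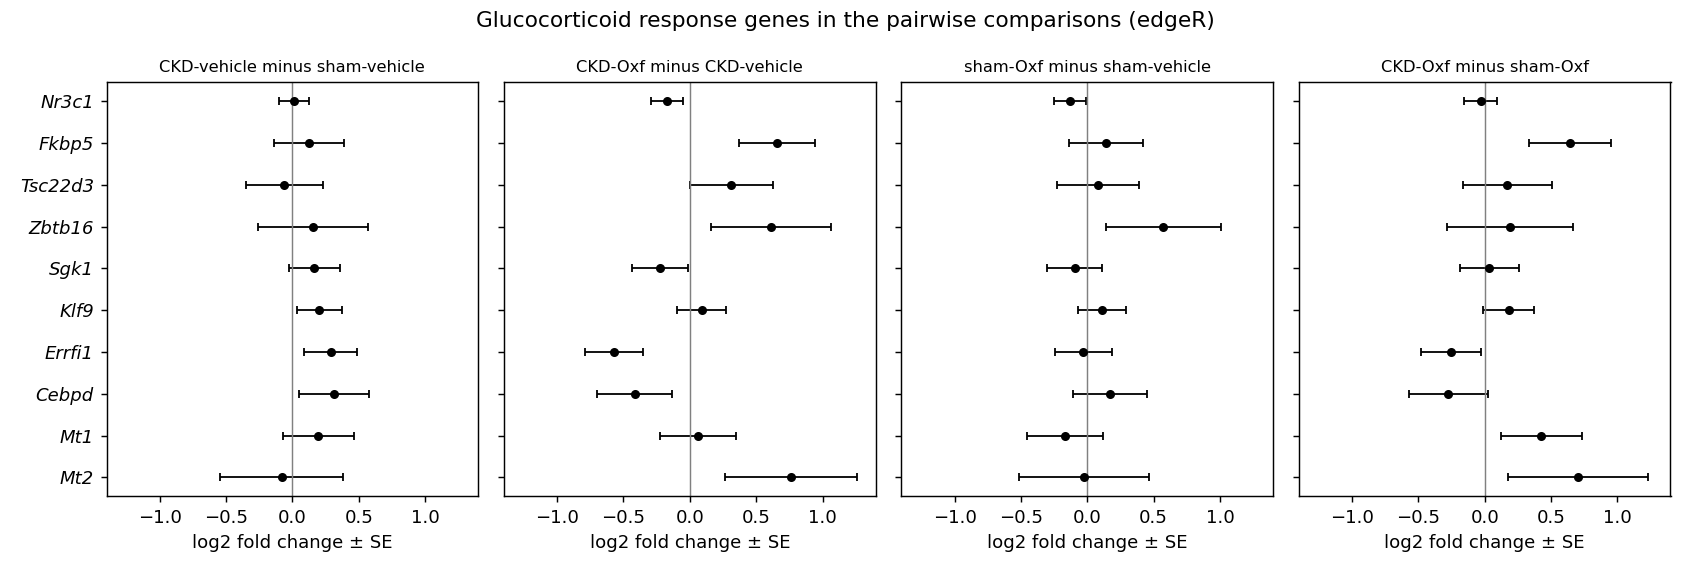
Log2 fold change of each gene in the 4 pairwise contrasts (edgeR). Points are estimates from 1 fit over 28 libraries, and whiskers are 1 SE to each side. In CKD-Oxf minus CKD-vehicle, Fkbp5 (0.66 ± 0.29) and Errfi1 (-0.57 ± 0.22) lie more than 2 SE from 0, on opposite sides.

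Mouse numbers do not overlap between groups, so the relation of level to number was examined within groups, with 1 slope shared by all groups and with 1 slope for each. No gene passed the adjusted threshold for the shared slope, where 0.0371% of all genes did. At an unadjusted p of 0.05, 4 of 10 had a positive slope, beside 3.03% of all genes, and none a negative one, beside 2.47% (5.5% in both directions). Zbtb16 had a slope of 0.14 ± 0.049 log2 per mouse number (p = 0.00664, edgeR adjusted p = 0.767). Fkbp5 had 0.091 ± 0.030 (p = 0.00507, adjusted p = 0.72), Mt1 0.098 ± 0.030 (p = 0.00301, adjusted p = 0.603) and Mt2 0.14 ± 0.053 (p = 0.0158, adjusted p = 0.824). The median over the 10 genes was 0.051, against 0.0083 over all genes, and Nr3c1 alone was negative (-0.018). Without mouse 940, only Zbtb16 stayed below 0.05 (0.16 ± 0.055, edgeR adjusted p = 0.7), while Fkbp5 was at 0.065 ± 0.033, Mt1 at 0.044 ± 0.030 and Mt2 at 0.055 ± 0.058. With the clock score as a covariate the genes below 0.05 were Mt1, Mt2 and Errfi1, and Zbtb16 was at -0.032 ± 0.072. Without the lowest and highest number of each group there was none, Mt1 was at -0.019 and Mt2 at -0.026.

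Slopes for each group were as follows. In CKD-vehicle, Zbtb16 had 0.40 ± 0.11 log2 per number (p = 0.00114, edgeR adjusted p = 0.896), as the split into 3 low and 3 high mice shows, and Fkbp5 had 0.15 ± 0.067 (p = 0.0389). The clock score of these 6 mice was -2.50, -2.66 and -2.12 in the 3 low ones and -1.06, -0.23 and -0.59 in the 3 high ones. With the clock score as a covariate the Zbtb16 slope was 0.063 ± 0.17 and that of Fkbp5 0.0021 ± 0.12. In sham-vehicle only Fkbp5 had an unadjusted p below 0.05 (0.092 ± 0.044, p = 0.0473, edgeR adjusted p = 1), and mice 901 to 910 had 17.0, 16.3, 15.9, 19.4, 24.5, 13.04, 13.5, 21.2, 27.6 and 34.9 CPM. The last 3 of these mice included the highest 2. That slope was -0.040 ± 0.099 with the clock score.

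In CKD-Oxf the genes were Mt1 (0.20 ± 0.049, p = 0.00049), Mt2 (0.29 ± 0.088, p = 0.0029), Fkbp5 (0.15 ± 0.054, p = 0.00832) and Errfi1 (0.12 ± 0.044, p = 0.0107), all with an edgeR adjusted p of 0.994. These rest on mouse 940, whose number stands apart: without it the slopes were -0.010 for Mt1, 0.036 for Mt2, 0.028 for Fkbp5 and -0.065 for Errfi1. In sham-Oxf, Mt1 had the smallest p (0.14 ± 0.077, edgeR adjusted p = 0.314), and without mouse 921 it was -0.014. In each group 0 of the 10 genes passed the adjusted threshold. Among all genes, 0.0124% passed it for sham-vehicle and 0.00412% for CKD-vehicle (0.902% and 2.44% at an unadjusted p of 0.05). With Oxf the shares were 1.42% for sham and 0% for CKD mice (19.9% and 4.88% unadjusted). A joint test of equal slopes in the 4 groups called 0 of the 10 genes and 0 of all genes (edgeR; 1803 genes and none of the 10 at an unadjusted p below 0.05, with Zbtb16 lowest at p = 0.0751).

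**Figure D3:**
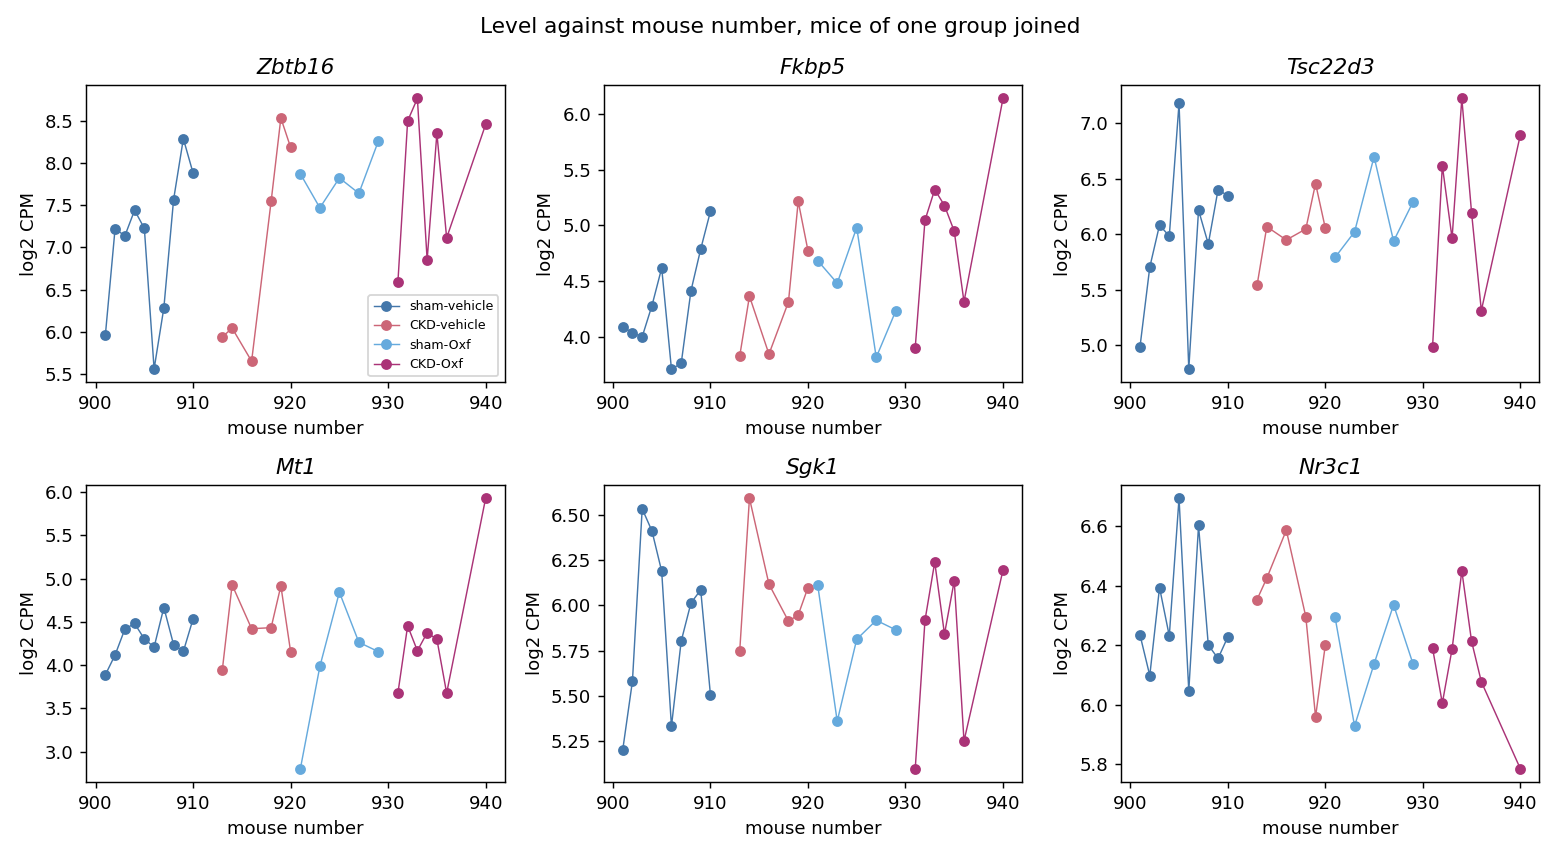
Log2 CPM of 6 of the genes against mouse number, with the mice of a group joined (colours give the group). Axes differ between panels. Zbtb16 steps up between the third and the fourth CKD-vehicle mouse, and the last point, CKD-Oxf mouse 940, is the highest for Fkbp5 and Mt1 and the lowest for Nr3c1.

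Among themselves, 39 of the 45 pairs of the 10 genes correlated positively across the 28 libraries after each group's mean was taken off, and 17 pairs had r above 0.5 (median 0.43). These correlations share library, depth and composition and are given as descriptions. The counts were not set beside those of other sets of genes. Without mouse 940, r for Mt1 and Errfi1 went from 0.66 to 0.45, while that of Tsc22d3 and Klf9 stayed at 0.92. Tsc22d3 and Klf9 were the closest pair (r 0.92, rho 0.86), with r of 0.95, 0.75, 0.82 and 0.96 within the groups, in the order of their mouse numbers. Cebpd followed both (0.79 with Tsc22d3, 0.72 with Klf9). Fkbp5 went most closely with Zbtb16 (r 0.72) and Tsc22d3 (0.68), though sham-Oxf gave only 0.038 for Fkbp5 and Zbtb16. Mt1 and Mt2 had r 0.82 and rho 0.72, from 0.15 in sham-vehicle to 0.96 in sham-Oxf, with 0.83 in CKD-vehicle and 0.93 in CKD-Oxf. The sham-Oxf value is from 5 mice and includes mouse 921, with no Mt2 count, and the CKD-Oxf value includes mouse 940. Over all groups, r of Mt1 and Mt2 was 0.85 without mouse 921 and 0.80 without mouse 940. Without the 2 mice farthest from the median of Mt1 their r was 0.72. Nr3c1 was negative in 5 of its 9 pairs, most with Zbtb16 (-0.40).

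**Figure D4:**
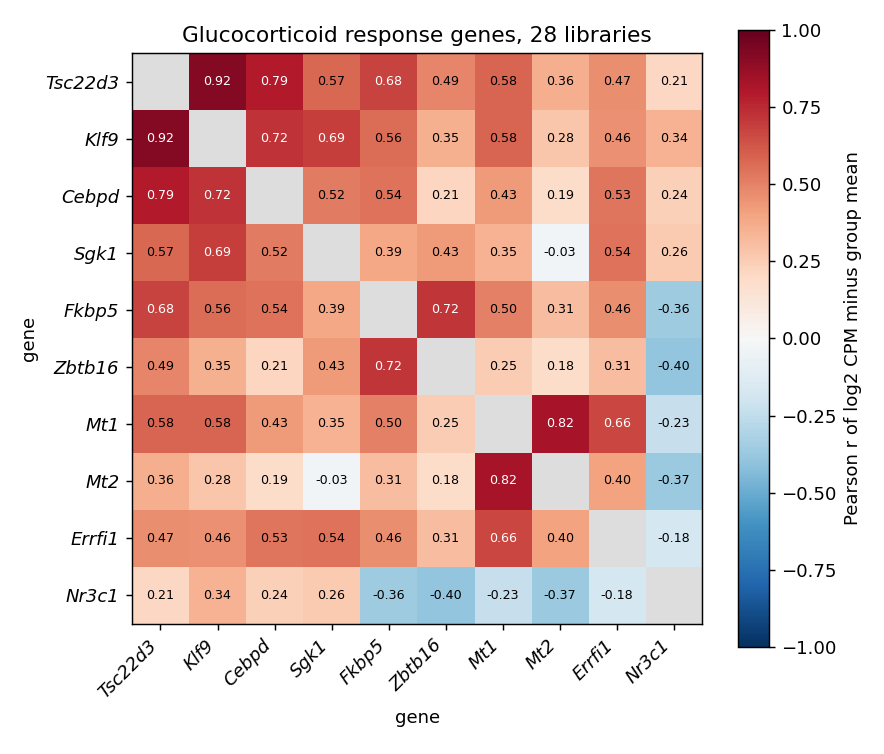
Pearson correlation of each pair of genes over 28 libraries, computed on log2 CPM minus the group mean (red positive, blue negative, values in the cells). Tsc22d3, Klf9 and Cebpd form the block at the upper left (0.72 to 0.92), Mt1 and Mt2 are paired (0.82), and 5 of the 6 negative values are in the Nr3c1 row (down to -0.40).

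Over the 13895 other genes whose mean log2 CPM reached 1, the profile nearest to Zbtb16 was that of Map3k6 (r 0.98 over 28 libraries), which encodes a stress-activated kinase. Bcl2l1, which encodes the survival protein Bcl-xL, followed at 0.94 and Slc43a3 at 0.91. Map3k6 spanned 15.6 to 89.4 CPM, with its lowest level in mouse 916 and its highest in mouse 933. Nearest to Fkbp5 were Slc10a6 (0.86), Sytl1 (0.80) and Fam107a (0.80). Tsc22d3 went with Stc1 (0.90), Herpud1 (0.89) and Ddit4 (0.89). For Mt1 the nearest were Hipk1 (0.80), Serinc3 (0.78) and Glul (0.78), and without mouse 940 these were 0.74, 0.66 and 0.66. Fam107a, Ddit4 and Glul are on the list of other glucocorticoid targets, so these likenesses overlap with the list described next.

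The other glucocorticoid targets, 28 genes and all tested, were likewise mostly below the threshold. With edgeR, Arrdc2, an arrestin domain gene, was the only one called, and only for the shared slope on mouse number (0.19 ± 0.035 log2 per number, edgeR adjusted p = 0.0213). For that slope DESeq2 called Arrdc2 and Per1, and limma voom Arrdc2, beside 39 and 31 of all genes. Arrdc2 ran from 5.00 CPM in sham-vehicle mouse 907 to 35.6 CPM in CKD-Oxf mouse 940, and the highest mice of the other groups were 909 (27.4), 919 (27.3) and 929 (22.0). At an unadjusted p of 0.05, 12 of 28 had a positive shared slope, beside 3.03% of all genes. Without mouse 940 there were 8 (3.69% of all genes), and without the lowest and highest number of each group 1 (1.6%). The Arrdc2 slope was 0.069 ± 0.049 with the clock score (edgeR adjusted p = 0.998), in a fit that called 0 of all genes for the shared slope. It was 0.16 ± 0.064 without the lowest and highest number of each group (adjusted p = 0.988). The call was also lost with the log2 7SL share (adjusted p = 0.0515), with ranks in place of numbers (adjusted p = 0.111) and in 9 of 28 fits without 1 library (mouse 901, 909, 910, 913, 914, 921, 929, 931 or 940), with adjusted p from 0.0539 to 0.122.

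In the 7 group contrasts edgeR called 0 of the 28, with 1 to 7 at an unadjusted p below 0.05. There were 7 in Oxf averaged over surgery (23% of all genes), 6 in sham-Oxf minus sham-vehicle (12.6%) and 4 in CKD-Oxf minus CKD-vehicle (13.1%). CKD-vehicle minus sham-vehicle gave 2 (4.46%), CKD-Oxf minus sham-Oxf 2 (8.23%), CKD averaged over gavage 2 (10.6%) and the interaction 1 (3.55%). DESeq2 called 3 (Per1, Foxo3 and Cdkn1a) for Oxf averaged over surgery, beside 2133 of all genes, and none in the other contrasts. Limma voom called 8 for Oxf averaged over surgery and 6 in CKD-Oxf minus CKD-vehicle, beside 5336 and 3640 of all genes. Angptl4, which encodes an inhibitor of lipoprotein lipase, had the smallest p in CKD-vehicle minus sham-vehicle (-1.42 ± 0.55, edgeR adjusted p = 0.955) and in the interaction (2.03 ± 0.81, adjusted p = 1). Its means were 6.47 ± 4.29 CPM in sham-vehicle (n = 10) and 2.42 ± 1.10 in CKD-vehicle (n = 6). The cell cycle inhibitor gene Cdkn1a was lowest in p in CKD-Oxf minus CKD-vehicle (-1.21 ± 0.37, edgeR adjusted p = 0.214) and in Oxf averaged over surgery (-0.94 ± 0.27, adjusted p = 0.0501). The 6 CKD-vehicle mice had 17.1 to 37.5 CPM of Cdkn1a and the 7 CKD-Oxf mice 3.48 to 16.1, without overlap. The share of all genes without overlap between these groups was not set beside this, and the clock score did not overlap between them either. Limma voom called the Cdkn1a difference in CKD-Oxf minus CKD-vehicle (-1.30 ± 0.32, adjusted p = 0.0114), beside 3640 of all genes. Pdk4, a kinase gene that restrains glucose oxidation, was lowest in p in sham-Oxf minus sham-vehicle (-0.81 ± 0.31, edgeR adjusted p = 0.278) and in CKD-Oxf minus sham-Oxf (0.91 ± 0.32, adjusted p = 0.383). Without mouse 940 the latter difference was 0.53 ± 0.27 (edgeR adjusted p = 0.609). For CKD averaged over gavage it was Lpin1, a lipid phosphatase gene (0.24 ± 0.078, edgeR adjusted p = 0.306). For the slopes within groups it was Arrdc2 in both vehicle groups, Fbxo32 in sham-Oxf and Glul in CKD-Oxf, and edgeR called none of the 28 there. At an unadjusted p below 0.05 there were 3 in sham-vehicle (0.902% of all genes) and 5 in CKD-vehicle (2.44%). There was 1 in sham-Oxf (19.9%) and there were 4 in CKD-Oxf (4.88%). DESeq2 called Fbxo32 for the slope in sham-Oxf (adjusted p = 0.017), beside 1901 of all genes. So did edgeR with the log2 7SL share (adjusted p = 0.0397), beside 649 of all genes. Limma voom called 10 of the 28 for the slope in CKD-vehicle, Arrdc2 among them, beside 8392 of all 24273 genes. For the slope in CKD-Oxf it called 6, Glul among them, beside 947 of all genes. In CKD-Oxf minus sham-Oxf 24 of 28 differences were positive, with a median of 0.30, beside 56.7% of all genes and a median of 0.047. In the score of this list, mouse 921 was the lowest of sham-Oxf (-1.55, next -0.28) and mouse 940 the highest of CKD-Oxf (0.85, next 0.21). Mouse 921 was the lowest of its group for 55.5% of all genes, and mouse 940 the highest of its group for 10.8%. Without both mice 18 of 28 were positive with a median of 0.065, beside 48.9% of all genes and a median of -0.0085. Without mouse 940 alone 20 were positive with a median of 0.14, beside 55.5% of all genes and a median of 0.042. Without mouse 921 alone 23 were positive with a median of 0.27, beside 49.5% of all genes and a median of -0.0034.

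CKD-Oxf mouse 940 stood apart from its group in the metallothioneins and several receptor targets. Mt2 was at 8.16 CPM against 1.45 ± 0.43 (SD) in the other 6, 5.63 times their mean. Mt1 was at 60.9 against 17.6 ± 3.99, 3.46 times the mean. Fkbp5 was at 70.5 against 29.1 ± 9.73 (2.42 times) and Errfi1 at 43.5 against 18.1 ± 3.33 (2.40 times). Its Nr3c1, at 55.1 CPM, was the lowest of all 28 mice. It was the highest mouse of its group for 5 of the 10 genes, beside 10.8% of all genes, and the highest of all 28 for Fkbp5, Mt1 and Mt2. Tsc22d3, Zbtb16, Sgk1 and Klf9 were inside the range of the other 6 mice. Of the 28 other targets it was highest of its group for 15. Among these were Pdk4 (168 CPM against 53.1 ± 17.9), Arrdc2 (35.6 against 13.5 ± 4.47), Glul (352 against 171 ± 40.5) and Hif3a (12.9 against 4.64 ± 2.32). The immediate-early genes Fos (92.7 CPM) and Fosb (39.4 CPM), which respond within minutes to many stimuli, were also at their highest of 28 in this mouse, and the immediate-early score was 1.495, the highest of its group. This mouse was singled out after its values were seen, and the part of handling or of tissue composition in its levels was not tested.

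**Figure D5:**
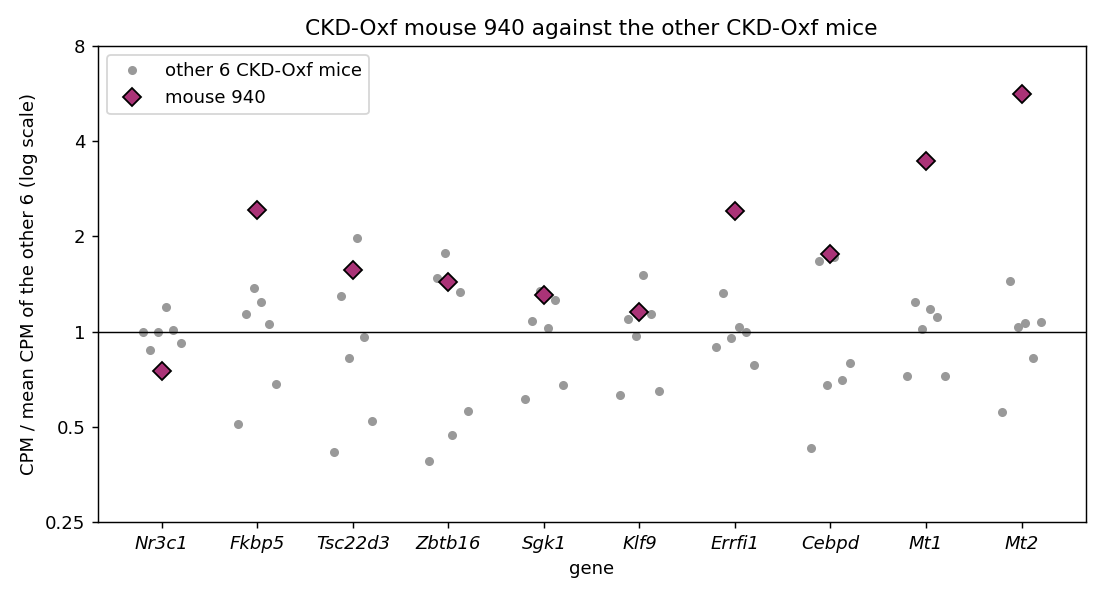
Level of each gene in CKD-Oxf mouse 940 (diamonds) and in the other 6 CKD-Oxf mice (grey points), as a ratio to the mean of those 6, on a log axis. Mt2 (5.63), Mt1 (3.46), Fkbp5 (2.42) and Errfi1 (2.40) lie above every other mouse of the group, and Nr3c1 (0.753) lies below.

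Other scores moved with some of the genes within groups, given here as r over 28 libraries after taking off group means. The clock score went with Zbtb16 (r 0.65, rho 0.66), Fkbp5 (0.49) and Tsc22d3 (0.40), and hardly with Sgk1 (0.031) or Errfi1 (-0.028). The 7SL share went with Nr3c1, Sgk1 (0.50) and Klf9 (0.41), and against Mt2 (-0.52, or -0.44 without mouse 921). Mt2 went with the leukocyte markers (0.69) and the fat markers (0.61). Without mouse 921 these were 0.46 and 0.54. The score of the other glucocorticoid targets ran from r -0.32 with Nr3c1 to 0.91 with Mt2, with Mt1 at 0.84 and Fkbp5 at 0.58. Without mouse 921 the r was -0.30 for Nr3c1, 0.85 for Mt2, 0.79 for Mt1 and 0.88 for Fkbp5. Of the 6 fat markers, Cfd alone had a count in every library, and Ucp1 was at 0 in 7. The fat score spanned -3.26 to 2.58 (sham) and -3.94 to 2.18 (CKD) with vehicle, and -5.87 to 1.58 (sham) and -3.74 to 2.28 (CKD) with Oxf. Of the 8 leukocyte markers, Ptprc, Adgre1 and Csf1r had counts everywhere, and S100a8 and S100a9 were at 0 in 4 libraries each. The leukocyte score spanned -0.78 to 0.58 (sham) and -0.46 to 0.18 (CKD) with vehicle, and -2.35 to 1.09 (sham) and -0.62 to 1.21 (CKD) with Oxf. Their part in the Mt2 levels was not tested.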

How the data were processed

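Per the labels' protocols, total ventricular RNA was purified on columns and read on an Illumina sequencer. Library type, use of strand and annotation are not given in the sources used here. The authors deposited raw counts per gene in 1 table with 28 columns, 1 for each library, and 0 columns were left unmapped. The submitters' processing notes name FastQC 0.11.7, MultiQC 1.9, STAR 2.6.1d, Subread, featureCounts 1.6.3 and build mm10, with no role or setting. Columns were matched to mice by library name, and mice of a group took replicate numbers by accession. Libraries of a group correlated at 0.830 to 0.984 (log2 CPM), and 0 columns were identical.

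Counts were scaled by TMM and tested in R 4.3.3 with the edgeR 4.0.16 quasi-likelihood F test (robust) in 1 fit of 4 group means without a covariate. The filterByExpr function (minimum count 10) left 24273 of 45513 genes. The Benjamini-Hochberg adjustment ran over all of them, with a threshold of 0.05. Slopes were fitted on mouse number centred within groups. CPM are counts per 1000000 after TMM, and log2 CPM used a prior count of 2. Errors of log2 differences are SEs from the F statistic. The scripts were tested on simulated data. Scores are means over a list of log2 CPM minus the sham-vehicle mean. Alternatives were DESeq2 1.42.0, limma 3.58.1 voom with sample weights, other scalings and filters, covariates, ranks and leaving out libraries.

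The genes and lists were chosen with earlier results of these data known. All 10 genes are named with levels. A difference or slope is given where the unadjusted p is under 0.05, and for the smallest p of each test. Of the receptor machinery and other target lists, genes past the threshold or else the smallest p are named. The 3 nearest genes were taken for 4 of the 10. Further values were added where an alternative changed them. Positions come from GENCODE M21 (GRCm38), which matched 45465 of 45513 identifiers.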

Additional observations from a re-analysis of the deposited data

Results flagged for a closer look

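In a group of 4 to 10 mice, a mouse was listed when its gap to the nearest other mouse was a large part of the group's range (Dixon's 95% limits). Of 60 such comparisons, 15 measures in 4 groups, 9 passed, where chance gives about 3. The measures were gene levels, scores and library values, and chance was not worked out for each kind. Most of the scores and library values that passed belonged to mouse 921. The excess over chance therefore cannot be read as one of the gene levels.

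Of the 9 gaps that passed, 3 concern the metallothioneins. CKD-Oxf mouse 940 had the highest Mt1, with a gap of 0.654 of the range (5.93 against 4.45 log2 CPM in the next mouse), and the highest Mt2, with a gap of 0.593 (3.04 against 1.10). Sham-Oxf mouse 921 had the lowest Mt2 (0 counts), with a gap of 0.801.

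Mouse 921 also had the lowest score of the other glucocorticoid targets in sham-Oxf (gap 0.714), the lowest score of the receptor machinery (0.93), the fewest genes with a count (0.796) and the highest 7SL share of its group, 10.3% against 3.66% in the next mouse (0.784). Over all 24273 genes it was the lowest of its group for 55.5%, with a median log2 difference of -0.55 from the other mice. The part of this in its low scores was not tested. In CKD-vehicle, mouse 916 had the lowest receptor machinery score (0.8). In CKD-Oxf, mouse 931 had the lowest clock score, 0.031 against 1.03 (0.614). It also had the lowest Fkbp5, Zbtb16, Sgk1, Tsc22d3, Klf9, Cebpd, Mt1 and Mt2 of its group. Mouse 936 was close in Mt1 (12.73 against 12.72 CPM) and Klf9 (61.5 against 59.6 CPM). The share of all genes that are lowest in mouse 931 was not set beside this.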

How the results depend on the processing

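Of 318 alternative results, 1 for each setting and test, all but 4 gave 0 called glucocorticoid response genes. These include all 196 that left out 1 library (range 0 to 0). Most fits gave several of these results, so there were fewer fits than results. The exceptions were 4 limma voom results with sample weights. CKD-Oxf minus CKD-vehicle gave 1 gene (Fkbp5, limma voom adjusted p = 0.0428, beside 3640 genes called in all). Oxf averaged over surgery gave 1 (Zbtb16, beside 5336). The slope in CKD-vehicle gave 3 (Zbtb16, Errfi1 and Cebpd, beside 8392) and the slope in CKD-Oxf gave 3 (Mt1, Mt2 and Errfi1, beside 947). The cause was not tested.

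Not all signs that turned are listed. Over the alternatives, Tsc22d3 in CKD-Oxf minus CKD-vehicle (0.31) ran down to -0.36. Mt2 in CKD-Oxf minus sham-Oxf (0.71) ran down to -0.34. The signs below are mainly those of genes named in a test. With the clock score as a covariate, Fkbp5 was at -0.13 in CKD-Oxf minus CKD-vehicle and -0.22 in Oxf averaged over surgery, Zbtb16 at -0.40 in sham-Oxf minus sham-vehicle, -0.80 in CKD-Oxf minus CKD-vehicle, -0.60 in Oxf averaged over surgery (0.59 without the covariate) and -0.032 for the shared slope, and the slopes were -0.040 for Fkbp5 and -0.19 for Arrdc2 in sham-vehicle and -0.063 for Arrdc2 in CKD-vehicle. Without the lowest and highest mouse of each group, the shared slopes were -0.019 (Mt1) and -0.026 (Mt2), and the CKD-Oxf slopes -0.18 (Fkbp5), -0.14 (Mt1), -0.11 (Mt2) and -0.145 (Errfi1). The Mt1 slope in sham-Oxf was -0.031 with voom. Leaving out 1 mouse at a time, it ran from -0.014 (without mouse 921) to 0.27. In CKD-Oxf the Mt1 slope then ran from -0.010 to 0.23 and that of Errfi1 from -0.065 to 0.15, both lowest without mouse 940. Leaving out mice 921 and 940 together, chosen after seeing the data, gave -0.014 for Mt1 in sham-Oxf, and -0.011 for Mt1 and -0.065 for Errfi1 in CKD-Oxf. The causes were not tested.

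No paired analysis was possible because the labels give no replicate numbers shared between groups. Mt2 had 0 to 418 counts a library, so counting error weighs most on it, and the other 9 genes had at least 146.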
